A study of Mus musculus with 16 samples.

Results

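The 10 genes Shox2, Tcf7l2, Gbx2, Lef1, Lhx9, Lhx2, Six3, Gata3, Rora and Foxp2 encode transcription factors that are known from the developing or adult thalamus and the regions next to it. They were taken by symbol from a count table of 21804 genes, and each symbol matched 1 Ensembl identifier. The table holds 16 polyA RNA-seq libraries from 8 C57BL/6 mice aged 4 months, with 1 cortex and 1 thalamus library from each animal. Of these animals, 4 were Pdgfb ret/wt controls and 4 were Pdgfb ret/ret, which gives 4 groups of 4 libraries. The ret allele lacks the retention motif that holds the growth factor PDGF-B near the endothelial cell that secretes it, and the controls carry 1 copy of it, so no group is free of the allele. In ret/ret mice the thalamus develops calcifications along vessels, and the pieces of ret/ret thalamus were calcifications cut out under a fluorescence stereomicroscope by their autofluorescence. The pieces of ret/wt thalamus came from matching positions and held no calcification, so genotype and way of dissection cannot be told apart within the thalamus. Cortex, which does not calcify, was taken from the same animals.

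The thalamus relays sensory and motor signals to the cortex. Its relay neurons are glutamatergic and arise from progenitors that depend on Wnt signalling, which acts through beta-catenin and the TCF/LEF proteins, while its inhibitory neurons come largely from the reticular nucleus, the rostral thalamus and the neighbouring midbrain. Gbx2 is a homeobox factor of newly born relay neurons, Shox2 a homeobox factor kept by subsets of relay neurons, and Tcf7l2 and Lef1 are the TCF/LEF factors of the thalamus. Lhx9 and Lhx2 are LIM homeobox factors; Lhx2 also patterns the cortex and is kept in upper cortical layers. Six3 and Gata3 are associated with GABAergic cells of the prethalamus and of the rostral thalamus and midbrain, respectively. Rora is a nuclear receptor that marks sensory relay nuclei and also cerebellar Purkinje cells, and Foxp2 is a forkhead factor of thalamus, deep cortical layers, striatum and Purkinje cells.

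By RefSeq, 9 of the 10 genes have an annotated start on GRCm38.p6 among the promoter sequences used here, with 14 windows of 250 bases before a start; Foxp2 has no entry. The windows below are from Tcf7l2 and Lef1, which encode TCF/LEF proteins, and from Shox2, which had Tcf7l2 among its 3 nearest genes in pattern. Of the Tcf7l2 and Lef1 windows, only those with a match are printed. Each is written 5′ to 3′ on the gene's strand, and capitals mark a TCF/LEF match, meaning the letters CTTTG followed by A or T and again by A or T, on either strand.
Shox2, chr3:66981772-66982021, minus strand: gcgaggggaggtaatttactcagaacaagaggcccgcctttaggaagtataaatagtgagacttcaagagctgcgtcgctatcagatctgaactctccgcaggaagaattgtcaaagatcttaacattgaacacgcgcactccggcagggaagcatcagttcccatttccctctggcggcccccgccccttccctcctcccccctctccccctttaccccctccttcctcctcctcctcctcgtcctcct
Tcf7l2, internal start, chr19:55895071-55895320, plus strand: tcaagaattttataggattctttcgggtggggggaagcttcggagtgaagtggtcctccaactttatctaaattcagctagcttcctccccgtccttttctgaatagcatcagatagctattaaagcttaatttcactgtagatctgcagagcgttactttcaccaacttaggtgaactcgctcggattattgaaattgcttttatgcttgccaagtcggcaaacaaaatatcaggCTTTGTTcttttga
Lef1, internal start, chr3:131156044-131156293, plus strand: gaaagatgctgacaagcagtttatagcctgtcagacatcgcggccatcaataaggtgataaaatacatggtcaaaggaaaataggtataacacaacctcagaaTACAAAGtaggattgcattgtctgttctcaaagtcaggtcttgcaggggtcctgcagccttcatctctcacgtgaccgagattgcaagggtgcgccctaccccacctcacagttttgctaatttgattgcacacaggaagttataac
The Tcf7l2 match lies 7 bases before its start and the Lef1 match 140 bases before its start, and the Shox2 window holds none. The upstream Tcf7l2 window (chr19:55741560-55741809) and the other Lef1 windows, not printed, hold no match either. Nor does the window of Gbx2, which also had Tcf7l2 among its nearest genes. Of the 14 windows, 3 held a TCF/LEF match (the remaining one belongs to Lhx9), beside 14.8% of 32851 windows of the same length over all genes. The homeodomain letters TAATTA were in 0 of the 14 windows, beside 4.84% of all windows, and the GATA letters AGATAA in 1, the Tcf7l2 window above, beside 9.99%. These letters were chosen after the promoters had been read, and a match is a description of the window only.

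Library totals ran from 13415391 to 29135064 estimated counts. Values below are CPM, the counts put on a common library total and scaled by TMM over the 16 libraries, given for replicates 1 to 4 in that order, and n is 4 libraries in every group. A library with 3 counts of a gene stands at 0.103 to 0.224 CPM, and levels at or under that are treated as a floor. Both libraries of ret/wt replicate 3 and of ret/ret replicate 2 stood apart from their groups. Their thalamus libraries held 1155 and 1141 CPM of Prkcd, a kinase of relay neurons, against 10.8 to 180 in the other 6 thalamus libraries. Their cortex libraries had summed levels of 14 cerebellum markers of 4976 and 9659 CPM, against 668 to 1546 in the other 6 cortex libraries. In ret/wt cortex replicate 4 the 12 choroid plexus markers summed to 1171 CPM, against 11.1 to 71.5 in the other cortex libraries. In ret/ret thalamus replicate 4 the 15 midbrain markers summed to 1255 CPM, against 213 to 387 in the other thalamus libraries. These markers were picked out after their values were seen, and their part in the results below was not tested.

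The first question was how far each factor separates thalamus from cortex in each genotype. Each comparison was fitted over all genes on its own 8 libraries with edgeR's quasi-likelihood test and Benjamini-Hochberg adjustment, and a gene was called at an adjusted p under 0.05. In ret/wt, 9 of the 10 genes passed the count filter and 6 were called (Shox2, Tcf7l2, Lef1, Six3 and Gata3 higher in thalamus, Lhx2 lower), where 12.6% of 14442 genes tested were called, 5.44% as higher and 7.12% as lower. In ret/ret, all 10 were tested and 5 were called, each higher in thalamus (Shox2, Tcf7l2, Gbx2, Lhx9 and Gata3), where 9.50% of 14715 genes tested were called, 4.10% as higher and 5.40% as lower. The libraries of the 2 regions did not overlap for 8 of the 10 genes in ret/wt and for 7 in ret/ret, as for 19.9% and 17.5% of all genes tested. Shox2, Gbx2, Six3 and Gata3 were so low in cortex that they entered the fit through thalamus alone, so they had to differ and the counts carry no weight for them.

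**Figure D1:**
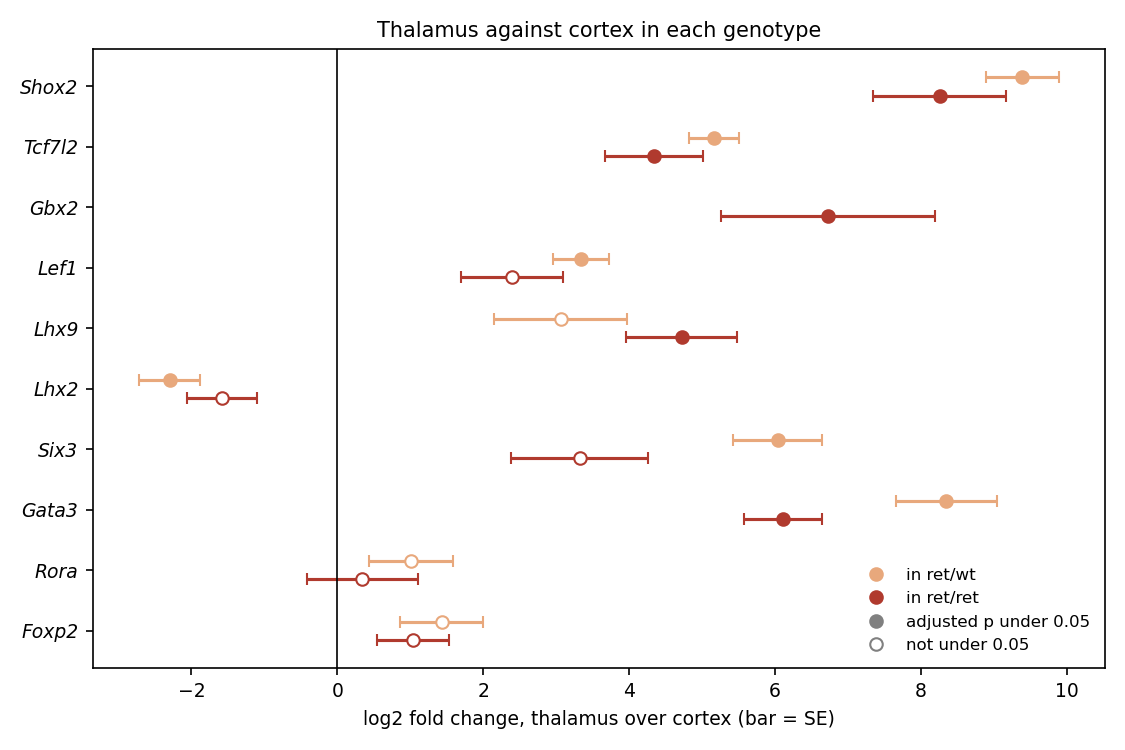
Log2 fold change of thalamus over cortex for each gene (x axis; bar, SE; 4 against 4 libraries) in ret/wt and ret/ret, filled where the edgeR adjusted p was under 0.05. Shox2 lies farthest to the right in both genotypes, at 9.39 and 8.26, and Lhx2 alone lies left of 0, at -2.30 and -1.58; Gbx2 was not tested in ret/wt.

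Shox2 (ENSMUSG00000027833, chr3:66971727-66981771, minus strand) was close to absent from cortex and plentiful in thalamus. In ret/wt cortex it stood at 0.0785, 0.0731, 0.132 and 0.0543 CPM, and in ret/wt thalamus at 61.1, 42.4, 108 and 42.7 CPM. In ret/ret the cortex values were 0.145, 0.131, 0.110 and 0.130 CPM and the thalamus values 27.7, 81.8, 47.2 and 5.43 CPM. No cortex library held more than 3 counts, while the lowest thalamus library held 108, so the regions did not overlap in either genotype. Pooled over the 4 libraries of each region, the ratio of thalamus to cortex was 714 (exact 95% interval 328 to 1947, counting error only) in ret/wt and 329 (179 to 687) in ret/ret. The fitted log2 difference was 9.39 ± 0.50 (SE) in ret/wt with an edgeR adjusted p of 2.7e-05, and 8.26 ± 0.91 in ret/ret with an edgeR adjusted p of 0.00235. The ret/ret call was lost with limma-voom, at an adjusted p of 0.0621. Shox2 entered the fit through thalamus alone, so it had to differ and the calls carry no weight. Shox2 shares 153 exon bases with Rsrc1 on the opposite strand, which averaged 99 CPM in thalamus, and whether strand was used in counting is not given in the sources used here.

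Gbx2 (ENSMUSG00000034486, chr1:89927956-89931179, minus strand) was found in 7 of the 8 thalamus libraries, at 0.906 to 22.8 CPM, and was the least even of the 10. Its ret/wt thalamus values were 0, 6.71, 12 and 15.7 CPM, and its ret/ret thalamus values 3.41, 22.8, 1.45 and 0.906 CPM. Cortex held 0 to 3 counts a library in ret/wt and 0 to 5 in ret/ret. Replicate 1 of ret/wt thalamus thus held no Gbx2 count at all and overlapped with cortex, and for that reason the gene missed the filter in ret/wt. The pooled ratio of thalamus to cortex was 130 (exact 95% interval 50.5 to 479, counting error only) in ret/wt and 118 (50.3 to 364) in ret/ret. In ret/ret the log2 difference was 6.73 ± 1.47 (SE, edgeR adjusted p = 0.0231). That call was lost without ret/ret cortex replicate 1, 3 or 4, at edgeR adjusted p-values of 0.0535, 0.0709 and 0.0663, and the log2 difference ranged from 4.90 to 10.18 over the alternatives. In ret/wt, the 6 alternatives in which Gbx2 entered the fit all called it, with edgeR adjusted p-values from 9.0e-04 to 0.0432. Gbx2 was near the floor in cortex, so it had to differ and the calls in either genotype carry no weight. Gbx2 shares 946 exon bases with D130058E05Rik on the opposite strand, which was not analysed here.

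Tcf7l2 (ENSMUSG00000024985, chr19:55741820-55933654, plus strand) was higher in thalamus in each of the 8 animals. The ret/wt values were 3.85, 2.41, 3.17 and 2.99 CPM in cortex and 62.2, 121, 162 and 96.2 CPM in thalamus. The ret/ret values were 3.78, 7.37, 4.67 and 4.88 CPM in cortex and 116, 219, 67.5 and 18.3 CPM in thalamus. The regions did not overlap, although ret/ret thalamus replicate 4 came within 1.90 log2 units of the cortex of its own animal, against 3.84 to 5.65 in the other 7. The fitted log2 difference was 5.16 ± 0.34 (SE, edgeR adjusted p = 3.8e-05) in ret/wt and 4.34 ± 0.67 (edgeR adjusted p = 0.00622) in ret/ret. All 15 alternatives kept the call in each genotype. Tcf7l2 is also made by differentiating oligodendrocytes, and the summed level of 10 oligodendrocyte markers was 9861 to 16920 CPM in the thalamus libraries against 1849 to 4630 in cortex. The part of these cells in the Tcf7l2 difference was not tested.

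Lef1 (ENSMUSG00000027985, chr3:131110471-131224356, plus strand), the other TCF/LEF factor of the set, had a smaller difference. Its ret/wt values were 3.53, 4.82, 2.59 and 3.04 CPM in cortex and 22.2, 23.2, 62.7 and 31.7 CPM in thalamus. Its ret/ret values were 8.50, 3.14, 5.37 and 12.5 CPM in cortex and 18.0, 101, 23.4 and 12.9 CPM in thalamus. In ret/ret the regions touched: the highest cortex and the lowest thalamus value, both from replicate 4, differed by 0.05 log2 units. The log2 difference was 3.34 ± 0.39 (SE, edgeR adjusted p = 5.8e-04) in ret/wt. In ret/ret it was 2.40 ± 0.70 and missed the threshold (edgeR adjusted p = 0.0592), and it was called by DESeq2 (adjusted p = 0.00169). Without ret/ret thalamus replicate 2 alone the ret/ret difference was 1.33 ± 0.44 (edgeR adjusted p = 0.0890). Without both animals that stood apart it was 1.06 ± 0.35 (edgeR adjusted p = 0.0752) and the ret/wt difference 2.77 ± 0.31 (edgeR adjusted p = 0.00216). The antisense gene Gm43352, not analysed here, shares 1208 exon bases with Lef1.

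Lhx9 (ENSMUSG00000019230, chr1:138825186-138848577, minus strand) was even across ret/wt thalamus, and its call in ret/wt turned on 1 cortex library and on the method. The ret/wt thalamus values were 42.1, 31.9, 27.4 and 24.9 CPM. The ret/wt cortex values were 0.314, 0.804, 1.01 and 12.9 CPM, and replicate 4, the highest, is the library with the choroid plexus markers. Their part in its Lhx9 level was not tested. The 16 hypothalamus markers summed to 43.0 CPM there, of which the peptide gene Trh alone made up 38.3, and 9 of the 16 were at 0. With that library the ret/wt log2 difference was 3.06 ± 0.91 (SE) and missed the threshold (edgeR adjusted p = 0.0521). Without it the difference was 5.43 (edgeR adjusted p = 2.0e-04), and with the animal as a replicate block it was 4.38 (edgeR adjusted p = 0.0331). With that library kept, the gene was also called by limma-voom (4.36, adjusted p = 0.00380) and, just inside the threshold, without the filter (edgeR adjusted p = 0.0427) and when scaled by library size alone (edgeR adjusted p = 0.0488); DESeq2 gave it no adjusted p. In ret/ret, cortex held 1.96, 0.262, 0.767 and 0.781 CPM and thalamus 20.0, 33.7, 37.8 and 4.68 CPM, again lowest in replicate 4. That difference, 4.72 ± 0.76 (SE, edgeR adjusted p = 0.00684), was called.

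Gata3 (ENSMUSG00000015619, chr2:9857078-9890034, minus strand) and Six3 (ENSMUSG00000038805, chr17:85613608-85629302, plus strand), the 2 factors of inhibitory cells, were also near the floor in cortex. Gata3 stood at 14.8, 11.4, 5.20 and 16 CPM in ret/wt thalamus and at 8.02, 10.5, 13.2 and 9.91 CPM in ret/ret thalamus. Cortex held 0 to 1 Gata3 counts a library in ret/wt and 0 to 6 in ret/ret, so the regions did not overlap. The log2 difference of Gata3 was 8.35 ± 0.69 (SE, edgeR adjusted p = 1.1e-04) in ret/wt and 6.11 ± 0.54 (edgeR adjusted p = 0.00133) in ret/ret, and every one of the 15 alternatives called it in each genotype. Gata3 entered the fit through thalamus alone, so it had to differ and these calls carry no weight. Its pooled ratio of thalamus to cortex was 407 (exact 95% interval 112 to 3363, counting error only) in ret/wt and 68.5 (39.0 to 133) in ret/ret. Unlike the relay factors, Gata3 was not low in ret/ret thalamus replicate 4, and its lowest thalamus value lay in ret/wt replicate 3. Gata3 shares 77 exon bases with 9230102O04Rik on its own strand, which averaged 0.167 CPM in thalamus, and 155 with the antisense gene Gm13256, not analysed here.

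Six3 stood at 5.57, 5.93, 15.8 and 5.94 CPM in ret/wt thalamus and at 3.10, 3.04, 5.33 and 1.46 CPM in ret/ret thalamus. The ret/wt values other than replicate 3 were nearly alike, and the 2 genotypes did not overlap. In cortex Six3 was at 0.157, 0.0731, 0.0440 and 0.217 CPM in ret/wt and at 1.16, 0.0872, 0.0730 and 0.0651 CPM in ret/ret. The high ret/ret cortex library, replicate 1, also held the highest cortex sums of the 12 hippocampus markers, at 679 CPM against 168 to 463, and of the 14 striatum markers, at 513 CPM against 230 to 332. Wfs1 alone made up 476 CPM of that hippocampus sum, and Penk 212 CPM of the striatum sum. The hippocampus marker Prox1, at 8.93 CPM, was lowest there of the 8 cortex libraries. The part of these markers in the Six3 level of that library was not tested. In the same library the sum over the reticular and prethalamic genes, 834 CPM, was the lowest of the 8 cortex libraries, the others being at 909 to 1689 CPM. The log2 difference between regions was 6.04 ± 0.61 (SE, edgeR adjusted p = 2.9e-04) in ret/wt and 3.32 ± 0.94 (edgeR adjusted p = 0.0549) in ret/ret, the latter missing the threshold. Without ret/ret cortex replicate 1 the ret/ret difference was 5.34 (edgeR adjusted p = 0.00648). With that library kept, it was called by DESeq2 (adjusted p = 0.00344) and limma-voom (adjusted p = 0.0196). Six3 entered the fit through thalamus alone, so these p-values carry no weight. The pooled ratio was 68.3 (exact 95% interval 34.4 to 159, counting error only) in ret/wt and 12.3 (7.87 to 20.1) in ret/ret. Of the 21 pooled ret/ret cortex counts, 16 came from replicate 1. These intervals leave out the spread between animals, so they do not compare the genotypes. The antisense genes Six3os1 and Gm28528 share 106 and 168 exon bases with Six3 and were not analysed here.

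Rora (ENSMUSG00000032238, chr9:68653786-69388246, plus strand) and Foxp2 (ENSMUSG00000029563, chr6:14901349-15441977, plus strand) were present in both regions. Rora measured 116, 84.5, 229 and 60.5 CPM in ret/wt cortex and 101, 199, 567 and 116 CPM in ret/wt thalamus. In ret/ret it measured 85.2, 372, 149 and 94.8 CPM in cortex and 77.3, 627, 104 and 78.4 CPM in thalamus. The highest Rora value of every group came from one of the animals that stood apart, in cortex as in thalamus, and the regions overlapped in each genotype. Neither difference passed the test, with 1.01 ± 0.57 (SE, edgeR adjusted p = 0.286) in ret/wt and 0.34 ± 0.76 (edgeR adjusted p = 0.814) in ret/ret. The ret/wt value rested on thalamus replicate 3 and was 0.19 ± 0.43 without it. The ret/ret value turned to -0.98 ± 0.49 without thalamus replicate 2, to -0.33 ± 0.24 without both animals that stood apart and to -0.04 with the animal as a replicate block. Within animals Rora was higher in thalamus in 3 of 4 ret/wt and 1 of 4 ret/ret mice. Rora shares 82 exon bases with Gm15511 on the opposite strand, which was not analysed here.

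Foxp2 measured 14.9, 13.4, 25.2 and 1.79 CPM in ret/wt cortex and 41.9, 52.9, 28.9 and 25.5 CPM in ret/wt thalamus, without overlap. Its ret/ret values were 11.8, 17.1, 24.5 and 14 CPM in cortex and 19.0, 73.9, 32.4 and 13.5 CPM in thalamus, with overlap. Thalamus was the higher region in 4 of 4 ret/wt and 3 of 4 ret/ret mice. The log2 difference was 1.43 ± 0.57 (SE, edgeR adjusted p = 0.138) in ret/wt and 1.04 ± 0.49 (edgeR adjusted p = 0.212) in ret/ret, so neither was called by edgeR; DESeq2 called the ret/wt difference (adjusted p = 0.0479). The ret/ret value rested on thalamus replicate 2, the library at 73.9 CPM, and was 0.38 ± 0.35 without it. The lowest Foxp2 value of all, 1.79 CPM, belongs to the ret/wt cortex library with the choroid plexus markers.

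Lhx2 (ENSMUSG00000000247, chr2:38339281-38369733, plus strand) had the opposite pattern to its relative Lhx9 and was the one gene of the 10 with higher fitted levels in cortex. It stood at 57.1, 82.6, 24.1 and 59.1 CPM in ret/wt cortex and at 10.2, 12.2, 17.3 and 5.17 CPM in ret/wt thalamus. In ret/ret it stood at 38.4, 9.55, 33.1 and 41.8 CPM in cortex and at 14, 11.8, 10.8 and 4.23 CPM in thalamus. The lowest cortex value of each genotype came from the animals with the cerebellum markers, and in ret/ret it fell inside the range of thalamus. The log2 difference was -2.30 ± 0.42 (SE, edgeR adjusted p = 0.00570) in ret/wt and -1.58 ± 0.48 (edgeR adjusted p = 0.0684) in ret/ret. The ret/ret difference was called by DESeq2 (adjusted p = 0.00902) but not by limma-voom (adjusted p = 0.127). Without ret/ret cortex replicate 2 it was -1.86 and passed the threshold (edgeR adjusted p = 0.0113). Thalamus was lower in 7 of the 8 animals.

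**Figure D2:**
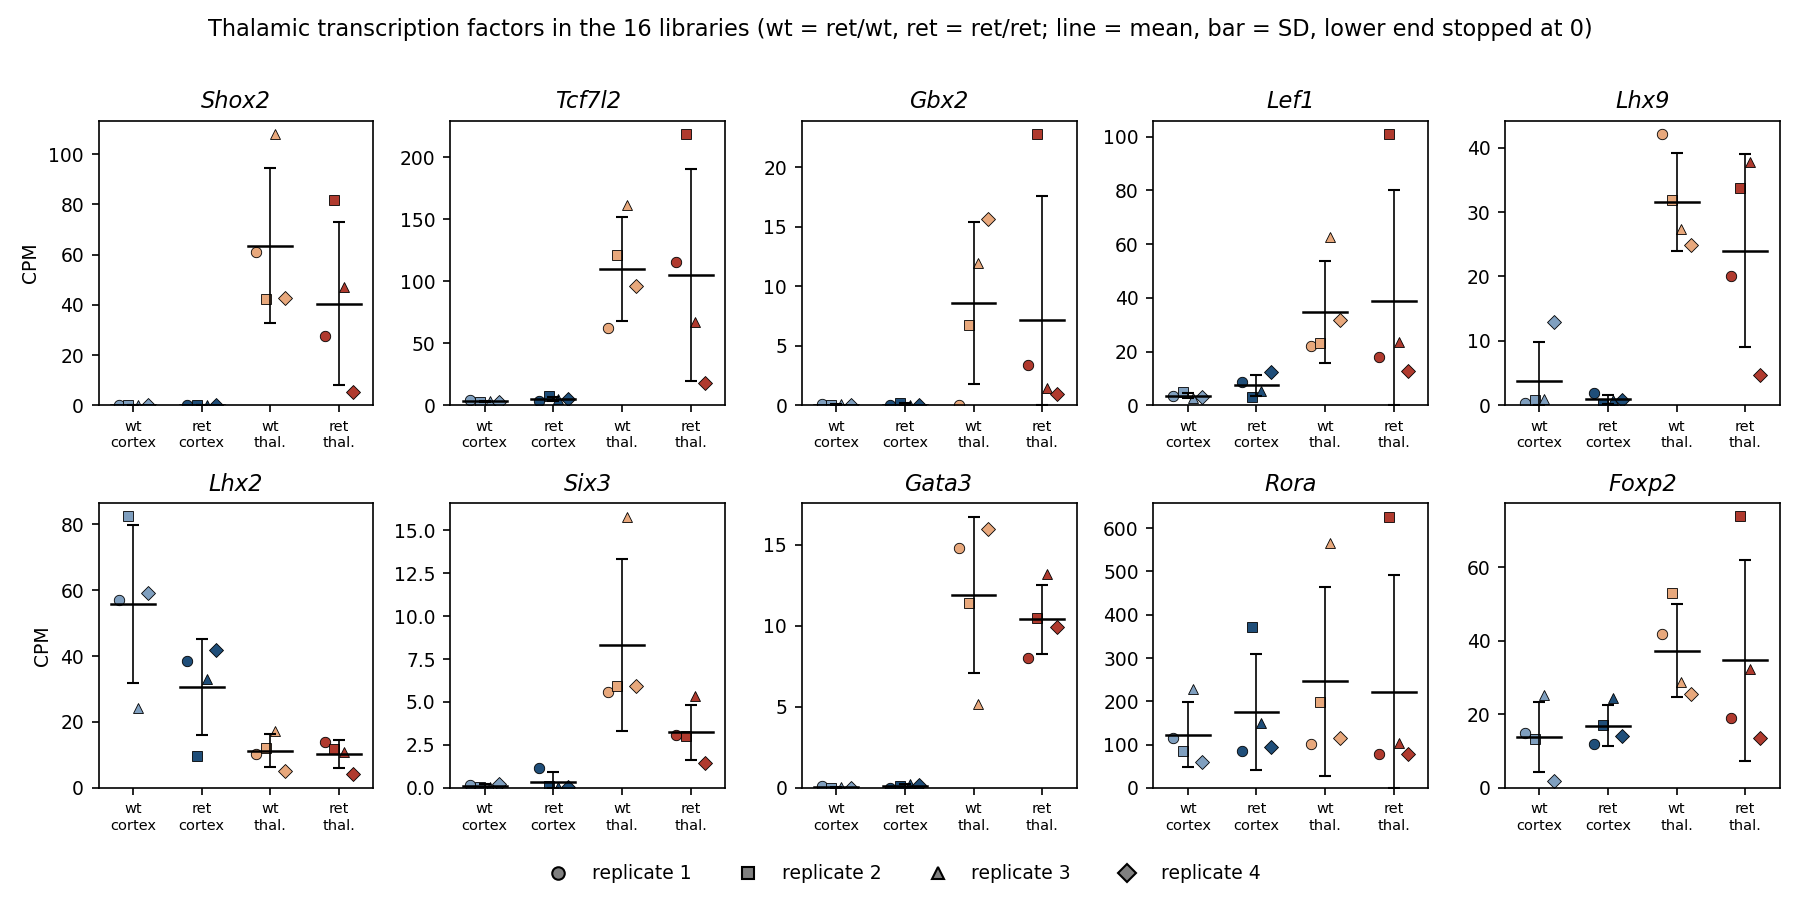
CPM of each gene (y axis, linear, own scale per panel) in the 16 libraries by group; marker shape gives the replicate, line and bar the mean and SD (n = 4). Shox2, Gbx2, Six3 and Gata3 lie near 0 in cortex, Lhx2 is the gene with the higher cortex mean, and ret/ret thalamus replicate 2 (square) and 4 (diamond) mark opposite ends for several genes.

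Per kilobase of merged exon, a rough way to set levels side by side between genes, ret/wt thalamus held the most Shox2 (19.2 CPM per kilobase) and Rora (18.8), followed by Tcf7l2 (12.6). Merged exons join all annotated transcripts of a gene, which can be longer than those expressed. How length entered the deposited counts is not given in the sources used here, so the order is approximate. Lef1 (3.97), Gbx2 (3.95), Lhx9 (3.32), Gata3 (2.98), Lhx2 (2.56) and Foxp2 (2.28) formed a lower tier, and Six3 (1.53) came last. The step from Tcf7l2 to Lef1 was larger than the SD of either gene over the 4 libraries, which was 38.0% and 54.3% of their means. Every other pair of neighbours in this order lay closer together than the larger of their SDs.

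The second question was whether the genotypes differed within thalamus, where only ret/ret mice calcify. None of the 10 genes was called, as none of 14767 genes was (0%; edgeR, smallest adjusted p = 0.216); before adjustment, 581 genes (3.93%) were under 0.05, and DESeq2 called 38 genes and limma-voom 0, none of them among the 10. Six3 alone was under that unadjusted level, at -1.33 ± 0.48 (SE; unadjusted p = 0.0185, edgeR adjusted p = 1.0), and alone did not overlap between genotypes, as was the case for 2.73% of all genes. Its mean was 3.23 ± 1.59 CPM (SD, n = 4) in ret/ret and 8.32 ± 5.02 in ret/wt, and without ret/wt thalamus replicate 3 the difference was -0.82 ± 0.43. For the relay factors the log2 difference of ret/ret from ret/wt was -0.62 ± 0.63 (SE) for Shox2, -0.04 ± 0.59 for Tcf7l2, -0.26 ± 1.23 for Gbx2, 0.17 ± 0.62 for Lef1 and -0.36 ± 0.49 for Lhx9. None of these differences was larger than its error. They also moved with single libraries: Shox2 was at -1.22 without ret/ret thalamus replicate 2, at -0.26 without replicate 4 and at -0.23 without ret/wt thalamus replicate 3, and Lhx9 was at -0.65 without ret/ret thalamus replicate 3 and at -0.02 without replicate 4. The remaining values were -0.16 ± 0.34 for Gata3, -0.10 ± 0.42 for Lhx2, -0.12 ± 0.77 for Rora and -0.07 ± 0.47 for Foxp2. The values are from bulk tissue, in which fewer cells of a type and less RNA per cell cannot be told apart.

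**Figure D3:**
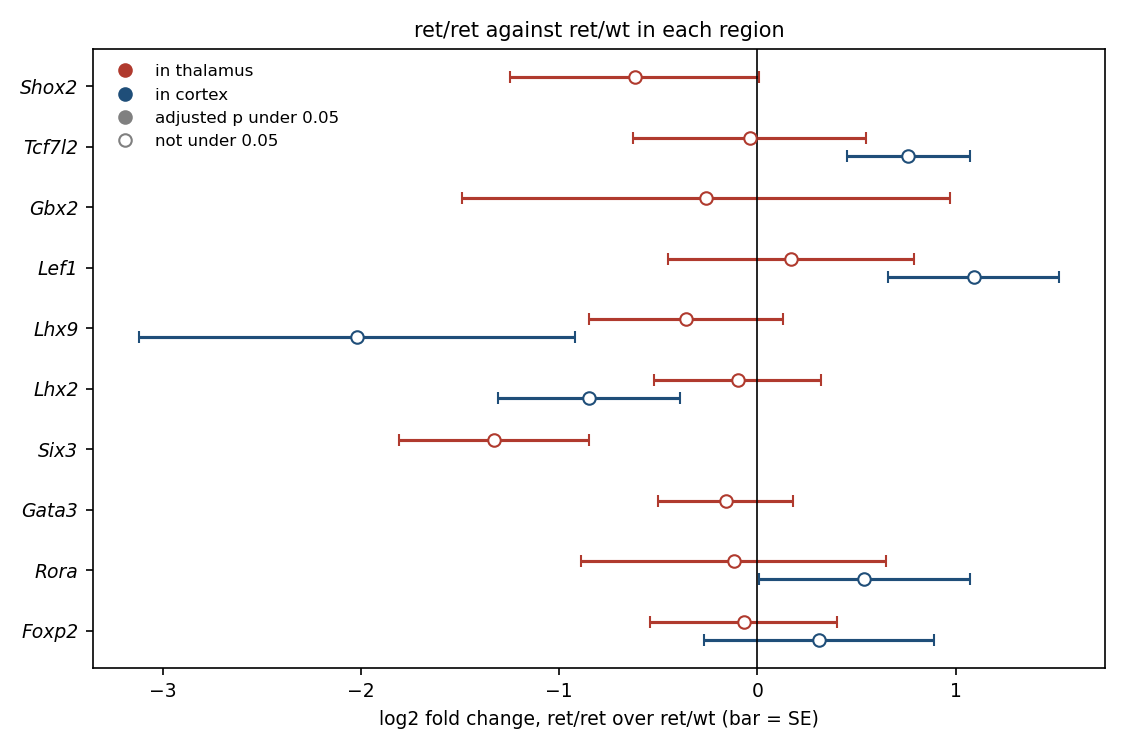
Log2 fold change of ret/ret over ret/wt (x axis; bar, SE; 4 against 4 libraries) in thalamus and in cortex; every point is open because no edgeR adjusted p was under 0.05. Six3 in thalamus, at -1.33, and Lhx9 in cortex, at -2.02, lie farthest from 0; Shox2, Gbx2, Six3 and Gata3 were not tested in cortex.

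In cortex, 6 of the 10 genes passed the filter and 0 were called, where 3 of 14288 genes (0.0210%) were called by edgeR; DESeq2 and limma-voom called none of the 10 either. The TCF/LEF genes were the 2 under an unadjusted p of 0.05, which 3.77% of all genes were. Lef1 was 1.09 ± 0.43 log2 units higher in ret/ret (SE; unadjusted p = 0.0294, edgeR adjusted p = 0.999) and Tcf7l2 0.76 ± 0.31 (unadjusted p = 0.0344, edgeR adjusted p = 0.999), both with overlapping groups (2.32% of all genes did not overlap), and both fail the correction; Lef1 was at 0.70 without ret/ret cortex replicate 4. Lhx9 was at -2.02 ± 1.10 (edgeR adjusted p = 0.999), and at 0.38 without ret/wt cortex replicate 4. Lhx2 was at -0.85 ± 0.46 (-0.55 without ret/ret cortex replicate 2), Rora at 0.54 ± 0.53 and Foxp2 at 0.31 ± 0.58.

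Whether the regional difference itself depended on genotype was tested as an interaction over all 16 libraries. It was called for none of the 10 genes and for none of 15286 genes (0%; edgeR), with 245 genes (1.60%) at an unadjusted p under 0.05, and DESeq2 called 4 genes, none of them among the 10. Genes called in a single genotype, such as Lef1, Lhx2 and Six3 in ret/wt or Lhx9 in ret/ret, are therefore not shown to differ between genotypes. The factors of inhibitory cells had the smallest unadjusted p-values, with an interaction of -2.70 ± 1.16 log2 units in ret/ret relative to ret/wt (SE; unadjusted p = 0.0336, edgeR adjusted p = 1.0) for Six3 and of -2.26 ± 0.94 (unadjusted p = 0.0292, edgeR adjusted p = 1.0) for Gata3. Both rest on cortex levels near the floor. The Six3 value rested on ret/ret cortex replicate 1 and was -0.74 ± 0.99 without it, and over all alternatives it ran from -3.18 to -0.74. The remaining interaction values ran from -1.14 ± 1.32 for Shox2 to 1.68 ± 1.24 for Lhx9.

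The third question was how even the thalamus libraries were. Each of the 10 genes varied more between libraries than the median gene. The SD of log2 CPM over the 8 thalamus libraries was 1.31 for Shox2, 1.09 for Tcf7l2, 2.87 for Gbx2, 0.97 for Lef1, 1.01 for Lhx9, 0.70 for Lhx2, 0.99 for Six3, 0.52 for Gata3, 1.23 for Rora and 0.79 for Foxp2, beside a median of 0.41 over 15286 genes. Gata3 was the most even, with 64.9% of genes below its SD, and Gbx2 the least, with 99.7% below. Among ret/wt libraries the median SD of the 10 genes was 0.71 (0.43 for all genes), and among ret/ret libraries 1.34 (0.35 for all genes). No test of these spreads was made.

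The ends of the range came mostly from a few libraries. Of the 10 genes, 7 were lowest in ret/ret thalamus replicate 4 (Shox2, Tcf7l2, Lef1, Lhx9, Lhx2, Six3 and Foxp2), and that library lay above the thalamus median for none of them. Gata3 there was 9.91 CPM, close to its thalamus median of 10.9. The same library held 150 CPM of Th and 234 CPM of Slc6a3, the tyrosine hydroxylase and dopamine transporter of midbrain dopamine neurons, against 4.38 to 36.7 and 1.42 to 63.0 in the other thalamus libraries. It also held 13.3 CPM of the midbrain homeobox gene En1 and the highest mitochondrial share, 12.1%. Their part in the low values was not tested. Without it, the SD among ret/ret thalamus libraries was 0.78 in place of 1.68 for Shox2, 0.85 in place of 1.52 for Tcf7l2, 0.49 in place of 1.38 for Lhx9 and 0.19 in place of 0.77 for Lhx2. The library was picked because it held the lowest values of these genes, so the smaller SDs carry no weight. SDs of the other genes without it are not reported here.

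The highest values lay in ret/ret thalamus replicate 2 for 5 genes (Tcf7l2, Gbx2, Lef1, Rora and Foxp2) and in ret/wt thalamus replicate 3 for 3 (Shox2, Lhx2 and Six3). These are the libraries with the most Prkcd, and the 26 relay neuron effector genes summed to 7986 and 8286 CPM in them against 2033 to 3320 in the rest. Their sums over the 14 habenula markers, 220 and 148 CPM, were the lowest of the 8, against 279 to 353. Calb2, which is also among the relay neuron effectors, made up 169 and 101 CPM of these sums. The habenula markers went both ways: Pou4f1 (0.402 and 4.72 CPM) and Chrna3 (0.849 and 1.55 CPM) were lowest there, and Nhlh2 (6.71 and 4.96 CPM) was highest. In these libraries the sums over the 15 midbrain markers, 370 and 387 CPM, were not low beside 213 to 381 CPM in the remaining libraries other than ret/ret replicate 4. Aldh1a1 alone made up 232 and 370 CPM of these sums, and 185 to 335 CPM in those remaining libraries. The mean log2 CPM over the list, in which no single gene dominates, was 1.84 in ret/ret replicate 2 but -0.39 in ret/wt replicate 3. It was -0.42 to 1.89 in those remaining libraries. Within that list Pax7, a homeobox gene of the dorsal midbrain, was lowest in ret/ret replicate 2 and ret/wt replicate 3, at 0.536 and 5.68 CPM. Th and Slc6a3 were second highest in ret/ret replicate 2. Sox14 and Tal1, factors of inhibitory cells next to Gata3, were likewise lowest in these 2 libraries, at 0.939 and 1.26 CPM and at 7.55 and 10.6 CPM. Gata3 itself was lowest in ret/wt replicate 3 but at 10.5 CPM in ret/ret replicate 2. Without ret/ret replicate 2 the ret/ret SD was 0.24 in place of 1.45 for Rora and 0.43 in place of 1.30 for Lef1. Without ret/wt replicate 3 the ret/wt SD was 0.52 in place of 1.13 for Rora and 0.05 in place of 0.72 for Six3. Each library left out held the highest value of these genes in its group, so the smaller SDs carry no weight. The part of these markers in the values of the 10 genes was not tested, and the markers were picked out after their values were seen.

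**Figure D4:**
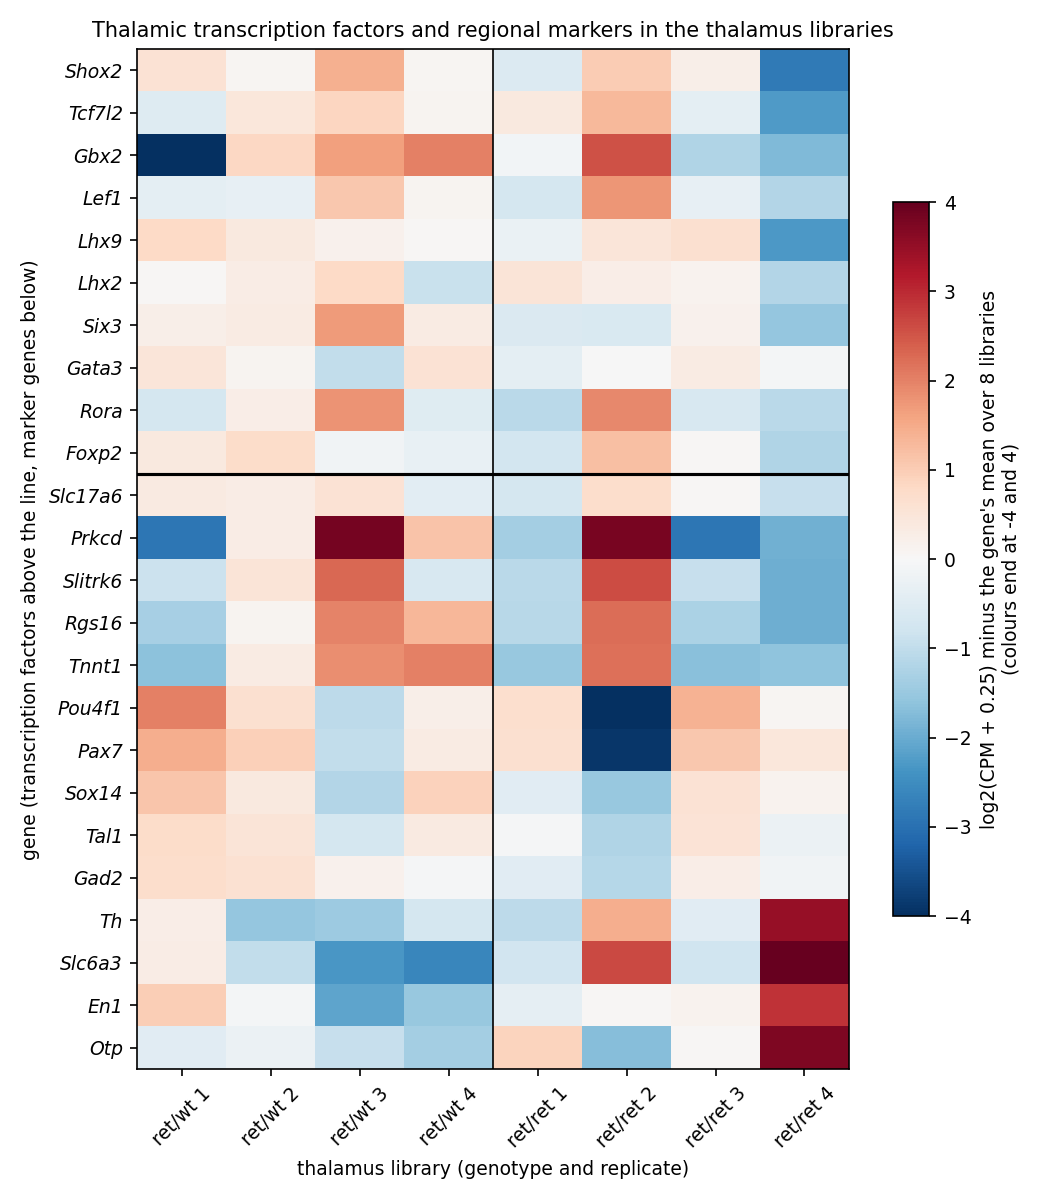
Colour gives log2(CPM + 0.25) minus the gene's mean over the 8 thalamus libraries (columns) for the 10 genes (above the line) and for marker genes picked after their values were seen (below). Shox2, Tcf7l2, Lhx9 and most others are low in ret/ret replicate 4, where Th, Slc6a3, En1 and Otp are high, and Prkcd is high in ret/wt replicate 3 and ret/ret replicate 2.

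Of 22 close relatives of the 10 genes in the table, 12 could be tested between regions in each genotype. In ret/wt 0 were called higher and 2 lower in thalamus, beside 5.44% and 7.12% of all genes, and in ret/ret 1 higher and 1 lower, beside 4.10% and 5.40%, which with 12 genes is near the background. The median log2 difference was 0.53 and 0.03, beside 0.03 and -0.02 for all genes. Lhx6, a LIM homeobox gene of cortical interneurons, was lower in thalamus in both genotypes, at -5.40 ± 0.49 (SE, edgeR adjusted p = 2.1e-04) in ret/wt and -3.89 ± 0.51 (edgeR adjusted p = 0.00406) in ret/ret. Foxp1, the relative of Foxp2, was called lower in ret/wt at -1.63 ± 0.24 (edgeR adjusted p = 0.00197) but not in ret/ret, at -1.01 ± 0.38 (edgeR adjusted p = 0.126). Gata2, the relative of Gata3, was called higher in ret/ret at 1.33 ± 0.34 (edgeR adjusted p = 0.0394) but not in ret/wt, at 1.17 ± 0.48 (edgeR adjusted p = 0.147). The other TCF/LEF genes were not called: Tcf7 was at -0.13 ± 0.38 in ret/wt and -0.34 ± 0.36 in ret/ret, and Tcf7l1 at 1.05 ± 0.40 and 0.06 ± 0.42. Also without a call in either genotype were Lhx1 (1.0 ± 1.26 and -0.27 ± 1.64), Lhx5 (2.78 ± 0.91 and 0.42 ± 1.34), Six4 (0.78 ± 0.33 and 0.56 ± 0.45) and Six5 (0.81 ± 0.41 and 0.56 ± 0.43). The same held for Rorb (0.27 ± 0.40 and -0.20 ± 0.43) and Foxp4 (-0.10 ± 0.28 and -0.01 ± 0.30).

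Among partners of beta-catenin and targets of the Wnt pathway, in which TCF/LEF proteins act, 3 of 36 genes tested were called higher and 5 lower in ret/wt thalamus, and 0 higher and 3 lower in ret/ret; the median was -0.10 and -0.17. The counts stand beside shares over all genes of 5.44% higher and 7.12% lower in ret/wt and 4.10% and 5.40% in ret/ret. The secreted modulator Dkk3 fell by 2.36 ± 0.34 log2 units (SE, edgeR adjusted p = 0.00175) in ret/wt and by 2.09 ± 0.49 (edgeR adjusted p = 0.0290) in ret/ret. The Wnt-potentiating ligand gene Rspo2 fell by 3.64 ± 0.48 (edgeR adjusted p = 0.00121) and by 4.13 ± 0.97 (edgeR adjusted p = 0.0300). Axin2, a common Wnt target, was at 13.3 to 24.8 CPM in ret/wt thalamus and at 17.7 to 24.9 CPM in ret/wt cortex. Of 17 cofactors of LIM and other factors, 0 were called higher and 2 lower in ret/wt and 1 and 1 in ret/ret, and the LIM-only gene Lmo4 fell by 2.20 ± 0.24 (edgeR adjusted p = 3.9e-04) and by 1.76 ± 0.28 (edgeR adjusted p = 0.00653).

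Other lists served as a frame for the 10 genes. Their counts stand beside 5.44% of all genes called higher and 7.12% lower in ret/wt, and 4.10% and 5.40% in ret/ret; some of these genes, like 4 of the 10, passed the filter through a single region and had to differ. Of 39 other diencephalic transcription factors tested in ret/wt, 14 were called higher and 4 lower in thalamus, and of 38 in ret/ret, 4 and 5. Of those called higher, 7 in ret/wt and 1 in ret/ret were under the filter within cortex. These counts do not show a difference between genotypes, and the interaction was called for 0 of 39. In ret/ret cortex replicate 2, which held cerebellum markers, Irx1, Irx2 and Barhl1 stood at 6.76, 5.15 and 2.62 CPM. The other ret/ret cortex libraries held at most 0.912, 0.218 and 0.290 CPM, and the part of that library was not tested. Sox14 was at 0 counts in all 8 cortex libraries and averaged 4.68 ± 2.58 CPM (SD, n = 4) in ret/wt thalamus and 2.88 ± 1.66 in ret/ret thalamus. Tal1 rose by 3.57 ± 0.41 (SE, edgeR adjusted p = 4.9e-04) and 3.05 ± 0.42 (edgeR adjusted p = 0.00480), while Mef2c fell by 3.90 ± 0.58 (edgeR adjusted p = 0.00194) and by 3.67 ± 0.62 (edgeR adjusted p = 0.00866). Of 26 relay neuron effectors, 15 were called higher in ret/wt and 5 in ret/ret, and none lower. The vesicular glutamate transporter gene Slc17a6 rose by 3.96 ± 0.25 (edgeR adjusted p = 3.8e-05) and 2.80 ± 0.55 (edgeR adjusted p = 0.0155). Slitrk6, the 1 called effector under the filter within cortex, was at 0.146 to 0.489 CPM in ret/wt cortex and at 6.87 to 62.7 CPM in ret/wt thalamus. Of 17 genes of reticular and prethalamic GABAergic cells, 3 were called higher and 4 lower in ret/wt and 1 and 5 in ret/ret; 3 of the called lower genes in each genotype were under the filter within thalamus, among them Dlx5, which cortical interneurons also express. In the genotype comparison within thalamus, none of these lists held a called gene. As a description of the labelled regions, of the cortical projection neuron factors 11 of 19 were called lower in ret/wt thalamus and 10 of 19 in ret/ret. In each genotype 2 of these, Emx1 and Fezf2, passed the filter through cortex alone, with Fezf2 at 27.9 ± 1.19 CPM (SD, n = 4) in ret/wt cortex and 0.380 ± 0.496 in ret/wt thalamus.

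Likeness of pattern was measured as the root mean square difference of log2 CPM, each gene centred on its own mean, over the 16 libraries, among genes with a mean log2 CPM of at least 1. On the same scale, the root mean square of the 10 genes around their own means ran from 1.01 (Rora) to 4.11 (Shox2). Nearest to Tcf7l2 were BC035947 (0.89), Slitrk6 (0.99) and Slc17a6 (1.02). Shox2 had Slitrk6 (1.76), Tcf7l2 (1.85) and Dgkk (1.86) as its nearest genes, and Gbx2 had Tcf7l2 (1.70), Prkcd (1.71) and Slitrk6 (1.83). Lef1 lay nearest to Amotl1 (0.58), Vash2 (0.58) and Slc17a6 (0.65). Slitrk6 thus appeared for 3 of the 10 genes. Lhx9 lay nearest to Drd2 (1.04), Dgkk (1.05) and Igsf1 (1.07), Six3 to BC035947 (0.98), Sfrp5 (1.0) and Igsf1 (1.04), and Gata3 to Shox2 (1.35), Tcf7l2 (1.46) and Sncg (1.47). The nearest to Rora were Pcp4 (0.40), Creg1 (0.51) and Kcnip4 (0.52), to Foxp2 Rims3 (0.64), Plcb4 (0.66) and Shh (0.67), and to Lhx2 Celf5 (0.45), Ak5 (0.47) and Shisa7 (0.48). The libraries share animals and dissections, so these distances are a description.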

How the data were processed

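RNA was measured by polyA-enriched, strand-marking RNA-seq in cortex and thalamus of 8 mice. The deposited values are estimated counts per gene (not whole numbers in 100% of values above 0); kallisto 0.44.0 and GRCm38.p6 are named per the submitters' processing notes, while annotation, summing of transcripts and filters are not given in the sources used here. Symbols matched 21581 of 21804 identifiers (99%); coordinates are from GENCODE on GRCm38.

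Counts were rounded and fitted with edgeR 4.0.16 in R 4.3.3 (glmQLFit, glmQLFTest; filterByExpr with a minimum of 10 and a total of 15; TMM), with Benjamini-Hochberg adjustment over all genes tested and a threshold of 0.05. Each comparison used its own 8 libraries, the interaction all 16. SE is the log2 fold change divided by the root of F. Spread is on log2 CPM with a prior count of 1. DESeq2 1.42.0, limma-voom (limma 3.58.1), other scalings, no filter, a replicate block and each library left out were alternatives. The tests between 2 groups were tested on simulated data, with 5 draws per comparison; in some draws of each the share of false calls was above the threshold, so an adjusted p close to it is an approximate guide.

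The genes and lists were chosen with earlier results of these data known. Named genes are the 10 genes, each relative tested, up to 2 rises and 2 falls per list among genes called in both genotypes, and the 3 nearest in pattern; some genes that this rule names are not reported here. The animal label pairs cortex with thalamus; residuals of the same animal correlated at 0.0608 on average in ret/wt and 0.0883 in ret/ret. Equal numbers across genotypes are different animals, so in comparisons between genotypes the replicate block pairs unrelated animals. No 2 of the 120 pairs of libraries were identical.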

Additional observations from a re-analysis of the deposited data

Results flagged for a closer look

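Of 40 sets of 4 libraries (10 genes in 4 groups), those with no library above 3 counts were not examined. These were Shox2 in both cortex groups and Gbx2 and Gata3 in ret/wt cortex. Among the rest, 7 held a value far from the other 3 by Dixon's criterion on CPM. For normally distributed values chance alone gives this in about 1 of 20 sets, a rate that need not hold for CPM on a linear scale. In ret/ret thalamus replicate 2, Lef1 was 101 CPM against 12.9 to 23.4 in the other replicates, Rora 627 CPM against 77.3 to 104, and Gbx2 22.8 CPM against 0.906 to 3.41. In ret/wt thalamus replicate 3, Six3 was 15.8 CPM against 5.57 to 5.94. In ret/wt cortex replicate 4, Lhx9 was 12.9 CPM against 0.314 to 1.01, and in ret/ret cortex replicate 1, Six3 was 1.16 CPM against 0.0651 to 0.0872. Gbx2 in ret/ret cortex replicate 2 was 0.218 CPM, from 5 counts, where the other 3 libraries held 0, a pattern that meets the criterion whatever the value.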

How the results depend on the processing

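Of the log2 fold changes of the 10 genes under the alternatives, 699 kept direction and side of the threshold, 13 passed it newly, 4 lost it and 39 changed sign, none of these last a called value; the cause was not tested. In ret/ret the regional count of called genes was 2591 with DESeq2, 2564 without both animals that stood apart and 627 to 2007 with 1 library left out, against 1398 (over 1.5 times fewer without ret/ret thalamus replicate 1, 3 or 4 or cortex replicate 3 or 4); of the 10 genes DESeq2 called 8. In ret/wt it was 1178 (without ret/wt cortex replicate 1) to 1797 with 1 library left out, against 1813. Scaling by library size alone moved the median of all genes in ret/wt from 0.03 to 0.13 and the split of calls from 785 higher and 1028 lower to 977 and 844. In cortex the genotype count was 39 with DESeq2 and 1 without both animals, against 3. It was 0 to 2 with 1 library left out and 0 with the replicate block, which between genotypes pairs unrelated animals. DESeq2 called 38 genes in thalamus and 4 in the interaction, against 0.

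Sign changes were as follows. Rora in ret/ret between regions was -0.04 with limma-voom, -0.04 with the replicate block and -0.33 without both animals (-0.98 to 1.03 with 1 library left out). Between genotypes in thalamus, Lef1 was -0.17 with limma-voom, -0.28 with the replicate block and -0.48 without both animals, Gbx2 0.99 with limma-voom and Lhx2 0.12 without both animals. With 1 library left out, Tcf7l2 ran from -0.68 to 0.31, Gbx2 from -2.13 to 0.23, Lef1 from -0.92 to 0.61, Lhx2 from -0.33 to 0.19, Gata3 from -0.41 to 0.04, Rora from -1.48 to 0.71 and Foxp2 from -0.75 to 0.20; in cortex, Lhx9 ran from -2.64 to 0.38, Rora from -0.15 to 1.01 and Foxp2 from -0.06 to 0.76. Gbx2's interaction was 1.40 with limma-voom and 0.19 without both animals. With 1 library left out, the interaction of Gbx2 ran from -2.22 to 3.01, Lhx9 from -0.69 to 2.27 and Rora from -2.0 to 0.16. The replicate block changed no other call than that of Lhx9 in ret/wt. Where counts were near the floor in cortex, depth limits the fold changes of Shox2, Gbx2, Six3 and Gata3.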
